A study of Homo sapiens with 12 samples.

Results

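The genes described here are the cytoplasmic actins and the main alpha and beta tubulins of a human cell, measured after knockdown of 2 subunits of prefoldin. They were 10 genes of the 58051 in each count table, chosen by name and matched by Ensembl identifier. ACTB and ACTG1 encode beta and gamma actin. TUBA1A, TUBA1B and TUBA1C encode alpha tubulins, and TUBB, TUBB2A, TUBB3, TUBB4B and TUBB6 encode beta tubulins. All 10 passed the filter on low counts.

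Prefoldin is a cytosolic complex that binds newly made actin and tubulin chains and hands them to the chaperonin TRiC, which folds them. Cells also adjust the RNA of these genes to the protein they hold. Free actin keeps the coactivators MRTFA and MRTFB away from the serum response factor SRF, which drives actin genes among others, and serum relieves this block. Free tubulin dimers trigger the decay of tubulin messenger RNA while it is being translated, through TTC5, a protein that reads the first residues of the new tubulin chain.

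RNA was sequenced from HCT116, an established human colon carcinoma line. Cells received a control siRNA (siControl) or an siRNA against PFDN2 (siPFDN2) or PFDN5 (siPFDN5), both of which encode prefoldin subunits. Starvation of serum began 24 h later and lasted 48 h, and cells were taken starved or after 90 min of serum. This gave 6 groups of 2 libraries each. No source used here says whether the 2 libraries of a group came from separate cultures, so p-values measure the spread between these libraries.

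Gene-body counts, which include introns, totalled 59784425 to 136504590 per library. Levels are given as CPM, the standard depth-scaled count, on each library's TMM-adjusted total. The epithelial markers EPCAM, CDH1, KRT8, KRT18, KRT19 and VIL1 each stood at 9.76 CPM of exon counts or more in all 12 libraries, whereas the intestinal factor CDX1 did not exceed 0.0263. PFDN2 was lower in both siPFDN2 groups than in siControl, without overlap. PFDN5 stood at 41.0 and 44.2 CPM in starved siPFDN5 libraries against 76.8 and 68.9 CPM in starved siControl. In the libraries labelled siPFDN5 after serum it stood at 67.5 and 68.6 CPM, against 67.9 and 74.0 CPM in siControl, so these groups overlapped. On exon counts they did not, at 78.0 and 79.6 CPM against 87.3 and 90.1 CPM, nor on the deposited transcript estimates, at 96.9 and 100.2 CPM against 105 and 109 CPM. In starved cells the exon counts were 52.2 and 55.5 CPM against 94.1 and 84.3 CPM. The siPFDN5 libraries also held more PFDN2 than siControl, 21.8 and 21.1 CPM against 11.5 and 11.2 CPM starved and 23.1 and 28.7 CPM against 19.5 and 16.3 CPM after serum. Replicate 2 of starved siPFDN2 stood apart from the other 11 libraries. Across genes its deviation rose with GC content (Spearman's rho 0.815, against -0.463 to 0.124 in the others), and the SD of the log2 difference between the 2 libraries of its group was 0.681, against 0.116 to 0.301 elsewhere. Without it the SE of the ACTB serum response in siControl was 0.10 in place of 0.19, so results are also given without that library.

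Sequences from the coding regions show how alike the tubulin genes are and why their counts can be confused. The first 30 coding bases below are from GENCODE release 29 transcripts, 5′ to 3′, with capitals marking the first 12 bases, which encode the residues at the start of the chain.
TUBA1A: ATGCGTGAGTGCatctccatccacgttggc
TUBA1B: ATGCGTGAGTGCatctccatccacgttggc
TUBB: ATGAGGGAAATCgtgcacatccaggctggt
TUBB2A: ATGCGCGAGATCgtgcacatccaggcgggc
TUBB3: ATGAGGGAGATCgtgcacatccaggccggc
TUBB4B: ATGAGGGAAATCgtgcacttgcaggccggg
TUBB6: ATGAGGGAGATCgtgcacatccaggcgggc
TUBA1A and TUBA1B share all 30 of these bases and were identical at 97.2% of 1353 coding bases. TUBA1C is not shown because its chosen transcript, TUBA1C-202, has a longer coding region (1557 bases) with another start. Aligned over that region it matched TUBA1A at 1297 and TUBA1B at 1310 of 1563 positions, or 83.0% and 83.8%. These shares count the bases missing from the shorter coding regions as differences. They cannot be set beside the identities of the other pairs. Pairs of beta tubulins had 80.9% to 87.8% identity. ACTB and ACTG1 were identical at 91.3% of 1125 coding bases.

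Short sequences did not always tell these genes apart. Of the 50-base windows along the main transcript, 62.7% in TUBA1B, 45.0% in TUBA1C and 41.1% in TUBA1A also occurred in another gene. In TUBB2A 65.5% of windows were shared, most of them with TUBB2B. In TUBB3 89.4% of windows were shared, all of these with AC092143.1, a readthrough gene that spans TUBB3. The share was 18.2% in TUBB, 10.3% in ACTB, 9.89% in TUBB4B, 4.03% in ACTG1 and 0.993% in TUBB6.

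Levels per length differed widely within the group. Exon counts per kilobase of exon, as median CPM per kilobase over the 12 libraries, were highest for ACTG1 at 1117 and ACTB at 626. TUBB followed at 286, TUBA1B at 165 and TUBB4B at 146. TUBA1C stood at 57.9, TUBB6 at 30.6, TUBB3 at 20.6 and TUBB2A at 8.65, with TUBA1A between TUBB6 and TUBB3. Over the 12 libraries the ranges of TUBA1B (128 to 206) and TUBB4B (126 to 225) overlapped, as did those of TUBB6 (26.4 to 39.1), TUBA1A (16.1 to 53.9) and TUBB3 (18.3 to 28.5). ACTG1 stood above ACTB in each of the 12 libraries, although the range of ACTB (422 to 756) met that of ACTG1 (743 to 1389). Together the 10 genes took 0.605% to 0.942% of a library's exon counts, and the highest share was in replicate 2 of starved siPFDN2. In these bulk libraries a change in the cells that express a gene and a change in RNA per cell cannot be told apart.

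**Figure D1:**
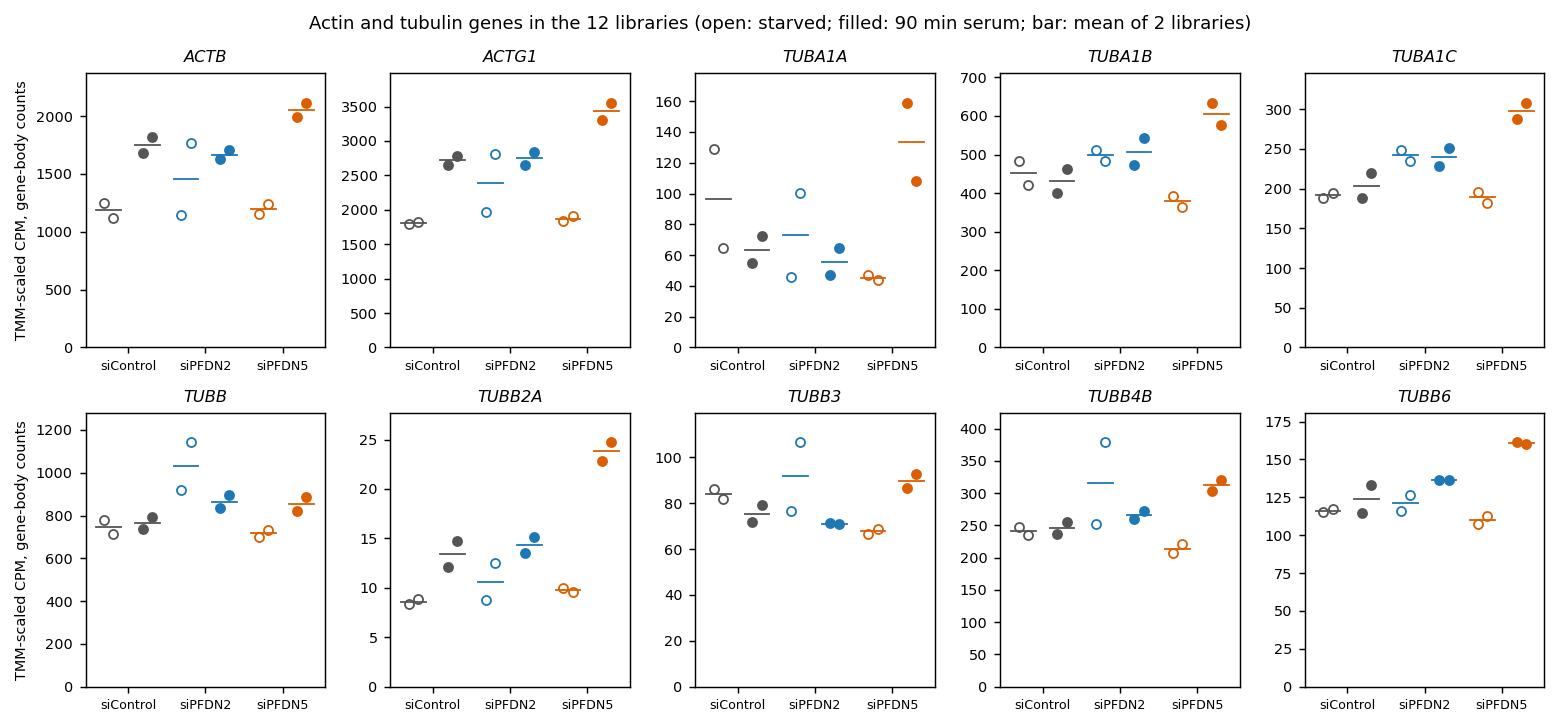
TMM-scaled CPM from gene-body counts (y axis, from 0) of each of the 10 genes in the 12 libraries, by siRNA (x axis). Open circles are starved libraries, filled circles are libraries after 90 min of serum, and bars are the means of 2 libraries. For each gene both libraries labelled siPFDN5 after serum lie above both starved siPFDN5 libraries. How many of all genes separate in this way was not counted, so nothing particular to these genes is read from it. At an unadjusted p under 0.05 by edgeR's quasi-likelihood test there were 9 members in that comparison, against 30.7% of all genes. In starved siPFDN2 the 2 libraries of ACTB lie at 1141 and 1770 CPM.

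The serum response was examined first, as the change from starved cells to cells 90 min after serum within each siRNA and averaged over the 3 siRNAs. Averaged, 4 members rose: ACTB, ACTG1, TUBB2A and TUBB6. The other 6 did not pass the test. Without replicate 2 of starved siPFDN2 7 members rose, the added ones being TUBA1B, TUBA1C and TUBB4B (27.5% of all genes called). Among all 27915 genes tested, 7.6% were called higher and 7.31% lower (14.9% in all) by edgeR's quasi-likelihood test at a Benjamini-Hochberg adjusted p under 0.05. The median log2 fold change was 0.23 over the 10 members and -0.03 over all genes. Scaling by library size alone lowered the median of all genes to -0.17, and relative to it ACTB stood at 0.53 and TUBB2A at 0.81, against 0.54 and 0.81 with TMM.

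ACTB (ENSG00000075624, GRCh38 chr7:5527151-5563784, minus strand) encodes beta actin. It stood at 1253 and 1118 CPM in starved siControl and at 1677 and 1818 CPM after serum. In siPFDN2 it went from 1141 and 1770 CPM to 1626 and 1709 CPM, and in siPFDN5 from 1158 and 1244 CPM to 1989 and 2116 CPM in the libraries so labelled. The starved and serum libraries did not overlap in siControl or siPFDN5. They overlapped in siPFDN2 through replicate 2 of the starved group. The averaged log2 fold change was 0.51 (SE 0.11, 95% interval 0.27 to 0.75), a 1.42-fold rise with an adjusted p of 0.0103 by edgeR's quasi-likelihood test.

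ACTG1 (ENSG00000184009, chr17:81509971-81523847, minus strand) encodes gamma actin and moved much as ACTB did. It stood at 1800.2 and 1825 CPM in starved siControl and at 2650.0 and 2784 CPM after serum. The siPFDN2 libraries went from 1965 and 2804 CPM to 2653 and 2842 CPM, and in siPFDN5 from 1831 and 1907 CPM to 3305 and 3557 CPM. Again the overlap lay in siPFDN2 alone and involved the same starved library. The averaged log2 fold change was 0.56 (SE 0.09, 95% interval 0.35 to 0.76), with an adjusted p of 0.00296 by edgeR's quasi-likelihood test.

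TUBB2A (ENSG00000137267, chr6:3153669-3157526, minus strand), a beta tubulin, had the lowest level of the 10 in gene-body and exon counts. It also had the largest averaged rise in gene-body counts. Its transcript estimates came to 2.41 to 2.80 times its exon counts, so its level depends on the counting. In gene-body counts the values were as follows. It stood at 8.37 and 8.84 CPM in starved siControl and at 12.2 and 14.7 CPM after serum. With siPFDN2 the values went from 8.77 and 12.5 CPM to 13.6 and 15.1 CPM, and in siPFDN5 from 9.97 and 9.57 CPM to 22.8 and 24.8 CPM. The starved and serum libraries did not overlap within any siRNA. The averaged log2 fold change was 0.79 (SE 0.11), a 1.73-fold rise with an adjusted p of 0.000674 by edgeR's quasi-likelihood test. Its near copy TUBB2B, with which most of its windows are shared, was 0.151 to 1.18 CPM, and also rose on average (log2 fold change 1.08).

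TUBB6 (ENSG00000176014, chr18:12307669-12344320, plus strand), another beta tubulin, moved less. It stood at 115 and 117 CPM in starved siControl and at 114 and 133 CPM after serum, so these groups overlapped. Under siPFDN2 the level went from 116 and 127 CPM to 136 CPM in both libraries, and in siPFDN5 from 107 and 112 CPM to 162 and 160.5 CPM. On average TUBB6 rose by 0.27 on the log2 scale (SE 0.08, adjusted p 0.0368), and it was called in 10 of 24 other settings. It overlaps AFG3L2 on the opposite strand and counting ignored the strand. With exon counts its averaged change was 0.19 (SE 0.08) and did not pass the test, while ACTB, ACTG1 and TUBB2A did (11% of all genes called).

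Promoter sequences of ACTG1 and TUBB2A are shown because these are the members that rose on average and held one of the motifs searched. In the RefSeq table of GRCh38.p14, 9 of the 10 genes were matched with 14 windows of 300 bases around start sites, 250 before and 50 after. ACTB was not matched. The windows were searched on both strands for the CArG box, the SRF-binding element, and for TGACGTCA, the element read by CREB and ATF factors. The second motif was chosen after the sequences had been seen. Both lines run 5′ to 3′ on the gene's strand with the motif in capitals.
ACTG1 at chr17:81512859-81512918: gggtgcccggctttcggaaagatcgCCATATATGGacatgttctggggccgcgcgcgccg
TUBB2A at chr6:3157572-3157629: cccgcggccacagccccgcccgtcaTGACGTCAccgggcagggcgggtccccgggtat
The CArG box lay at -94 to -85 from the ACTG1 start, and TGACGTCA at -60 to -53 from the TUBB2A start. Among all 35116 RefSeq promoter windows 1.29% held a CArG box and 1.85% held TGACGTCA. Neither string of letters occurred in the windows of the other 7 matched genes. A match is a description of the sequence and does not show that a factor was bound.

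Within siControl alone none of the 10 genes passed the test, against 2.87% of all genes. At an unadjusted p under 0.05 there were 3 members, against 12.4% of all genes. DESeq2 called 1, ACTG1 (2.43% of 48486 genes by that tool). Shares by DESeq2 are of all genes with any count, so they run lower than shares of the 27915 genes tested by edgeR. The log2 fold changes were 0.56 (SE 0.19) for ACTB, 0.58 (SE 0.16) for ACTG1 and 0.64 (SE 0.18) for TUBB2A, while the other 7 lay between -0.61 and 0.09. These 3 passed in siControl when replicate 2 of starved siPFDN2 was left out of the shared error estimate, with changes of 0.56, 0.58 and 0.64 (9.95% of all genes called). They passed likewise with the GC trend of each library removed (6.34% of all genes called). The starved and serum libraries of siControl did not overlap for any of the 3.

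In siPFDN2 none of the 10 genes passed the test either, against 3.26% of all genes. At an unadjusted p under 0.05 there were 2 members, against 28% of all genes. DESeq2 called none of the members and 6.25% of all genes. Here the doubted library is 1 of the 2 starved libraries and moved the values themselves. Without it ACTB, ACTG1 and TUBB2A rose, by 0.55 (SE 0.12), 0.48 (SE 0.11) and 0.71 (SE 0.14), against 0.20, 0.20 and 0.43 with all libraries (4% of all genes called without it). Without starved replicate 1 in its place, TUBB, TUBB3 and TUBB4B were called lower and no member higher, with 48.6% of all genes called. The siPFDN2 values of the actins thus depended on which starved library was used.

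In siPFDN5 7 members rose: ACTB, ACTG1, TUBA1A, TUBA1B, TUBA1C, TUBB2A and TUBB6. Of all genes 5.72% were called higher and 12.2% were called in either direction. All 10 values were positive, with a median log2 fold change of 0.67 against -0.03 over all genes. ACTB changed by 0.77 (SE 0.19), ACTG1 by 0.88 (SE 0.16), TUBB2A by 1.29 (SE 0.19) and TUBB6 by 0.55 (SE 0.13). Their adjusted p by edgeR's quasi-likelihood test lay between 0.00316 and 0.0267.

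The composition of the libraries moved with the siPFDN5 result. The intronic share of counts was 22.8% and 25.9% in the starved siPFDN5 libraries and 17.2% and 14.8% after serum, the only siRNA in which it fell without overlap. From exon counts, 4 members were called (ACTG1, TUBA1B, TUBA1C and TUBB2A, with 4.22% of all genes called) and the changes were smaller, 0.65 (SE 0.19) for ACTB and 0.75 (SE 0.16) for ACTG1. Leaving out 1 siPFDN5 library left at most 1 member called, namely none without starved replicate 1 and TUBB2A without each of the other 3 libraries. In these fits the share of all genes called also dropped, to 0.857% without starved replicate 1, 1.32% without starved replicate 2, and 1.07% and 1.05% without replicates 1 and 2 after serum. Whether intronic reads account for part of the siPFDN5 values was not tested.

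**Figure D2:**
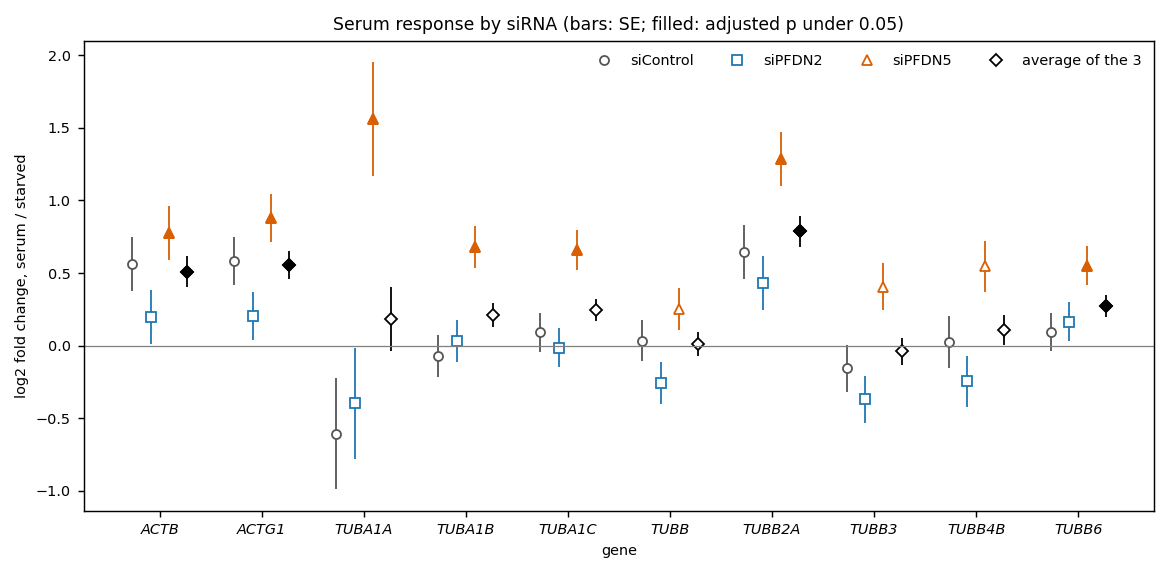
Log2 fold change from starved to serum (y axis) of each gene (x axis) in siControl, siPFDN2, siPFDN5 and on average over the 3 siRNAs. Symbols are edgeR estimates from gene-body counts, bars are SE, and filled symbols had an adjusted p under 0.05. In siPFDN5 all 10 values are positive, from 0.25 to 1.56, whereas in siPFDN2 they run from -0.40 to 0.43.

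The alpha tubulins were read with both counting methods because their sequences are shared. TUBA1A (ENSG00000167552, chr12:49184796-49189324, minus strand), an isotype best known from developing neurons, stood at 129 and 64.4 CPM in starved siControl and at 54.8 and 72.2 CPM after serum. In siPFDN2 it went from 46.1 and 101 CPM to 46.9 and 64.6 CPM, and in siPFDN5 from 46.8 and 43.8 CPM to 159 and 108 CPM. The 2 libraries of a group differed by up to 1.13 on the log2 scale in gene-body counts (starved siPFDN2), whereas no other member had such a difference above 0.63. In siPFDN5 serum raised it by 1.56 on the log2 scale (SE 0.39, adjusted p 0.0301), against -0.61 (SE 0.38) in siControl.

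The deposited transcript estimates, which share ambiguous reads between transcripts, gave another picture of TUBA1A. They stood at 94.1 and 92.5 CPM in starved siControl and at 110.4 and 106 CPM after serum. In siPFDN2 they went from 67.1 and 54.5 CPM to 84.2 and 86.7 CPM, and in siPFDN5 from 84.0 and 78.9 CPM to 122 and 121 CPM. On this scale TUBA1A was higher after serum in each siRNA, without overlap. The averaged log2 fold change was 0.42 (SE 0.08), which passed the test (9.37% of all genes called on these estimates), against 0.19 (SE 0.22) from gene-body counts. In siControl the sign turned, to 0.21 (SE 0.13), and neither value passed the test. The siPFDN5 change was 0.57 (SE 0.13) on these estimates and passed (4.35% of all genes called). Per library, the estimates came to between 0.388 and 1.32 times the exon count, so the level and the response of TUBA1A depend on the counting.

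TUBA1B (ENSG00000123416, chr12:49127782-49131397, minus strand) encodes the most abundant alpha tubulin of these cells on the per-kilobase scale. It stood at 484 and 422 CPM in starved siControl and at 400.2 and 461 CPM after serum. The siPFDN2 libraries went from 512 and 483 CPM to 474 and 542 CPM, and in siPFDN5 from 394 and 364 CPM to 634 and 578 CPM. The groups overlapped in siControl and siPFDN2 but not in siPFDN5, where TUBA1B rose by 0.68 on the log2 scale (SE 0.15, adjusted p 0.0187 by edgeR's quasi-likelihood test). The transcript estimates came to 1.85 to 2.27 times the exon counts and gave 0.46 (SE 0.12) in siPFDN5, which did not pass the test.

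TUBA1C (ENSG00000167553, chr12:49188736-49274603, plus strand), also an alpha tubulin, overlaps TUBA1A and 3 other annotated genes. It stood at 188 and 195 CPM in starved siControl and at 188 and 219.8 CPM after serum. With siPFDN2 the values went from 249 and 235 CPM to 228 and 251 CPM, and in siPFDN5 from 196 and 182 CPM to 288 and 308 CPM. The siPFDN5 change of 0.66 (SE 0.14, adjusted p 0.0168) passed also with transcript estimates, at 0.57 (SE 0.12). Its averaged change of 0.24 (SE 0.08) missed the threshold with an adjusted p of 0.0581.

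**Figure D3:**
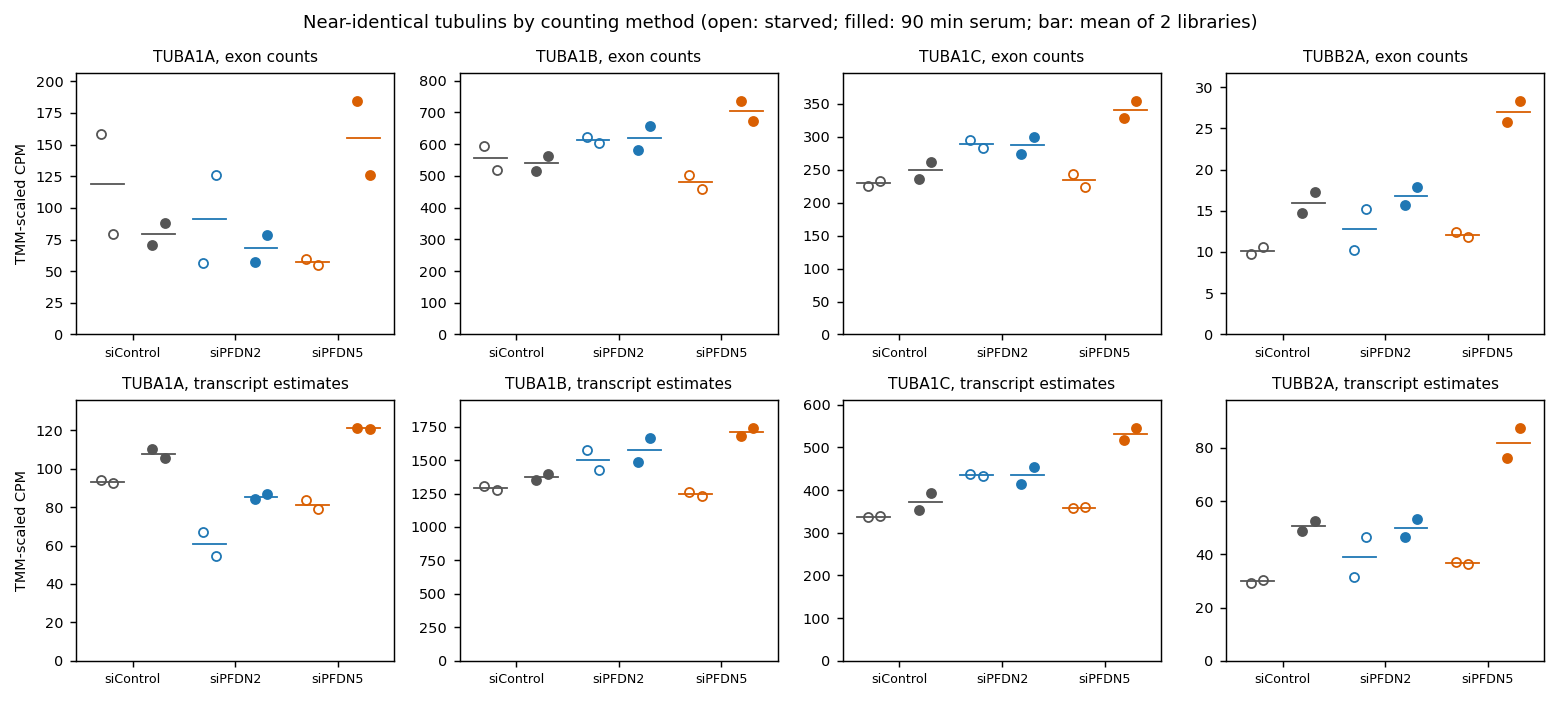
TMM-scaled CPM (y axis, from 0) of TUBA1A, TUBA1B, TUBA1C and TUBB2A by siRNA (x axis), from exon counts (upper row) and from the deposited transcript estimates (lower row). Open circles are starved libraries, filled circles are libraries after serum and bars are the means of 2 libraries. For TUBA1A the 2 starved siControl libraries lie at 158 and 79.1 CPM in exon counts and at 94.1 and 92.5 CPM in the transcript estimates.

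Of the remaining beta tubulins none passed the test in any of the 4 serum comparisons with all 12 libraries. TUBB (ENSG00000196230), the most abundant beta tubulin per kilobase, stood at 777 and 714 CPM in starved siControl and at 736 and 792 CPM after serum. Under siPFDN2 the level went from 918 and 1144 CPM to 833 and 894 CPM, and in siPFDN5 from 701 and 731 CPM to 820.3 and 884 CPM. The averaged log2 fold change was 0.01 (95% interval -0.17 to 0.19), so an averaged rise as large as that of ACTG1 lies outside the interval. The matched transcripts of TUBB held 0.0770 to 0.0862 times its exon counts, so transcript estimates were not used for this gene.

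TUBB4B (ENSG00000188229), a broadly expressed beta tubulin, stood at 247 and 236 CPM in starved siControl and at 236 and 255 CPM after serum. In siPFDN2 it went from 252 and 379 CPM to 259.5 and 273 CPM, and in siPFDN5 from 207 and 220.5 CPM to 303 and 321 CPM. In siPFDN5 it differed by 0.55 (SE 0.18, adjusted p 0.0662), which missed the threshold although the libraries did not overlap. Its averaged change was 0.11 with all libraries, and 0.22 (SE 0.05), past the threshold, without replicate 2 of starved siPFDN2.

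TUBB3 (ENSG00000258947), the beta tubulin used as a marker of neurons, was expressed in this carcinoma line at 66.5 to 107 CPM. It stood at 86.3 and 81.6 CPM in starved siControl and at 71.8 and 79.0 CPM after serum. The siPFDN2 libraries went from 76.7 and 107 CPM to 71.3 and 70.7 CPM, and in siPFDN5 from 66.5 and 68.9 CPM to 86.7 and 92.8 CPM. The libraries did not overlap within any siRNA, with serum lower in siControl and siPFDN2 and higher in siPFDN5. The log2 fold changes were -0.16 (SE 0.16), -0.37 (SE 0.16) and 0.41 (SE 0.16), and none passed the test.

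Intronic counts, the gene-body counts less the exon counts, were compared with exon counts because unspliced RNA can change sooner than mature RNA after a stimulus. For both actins the intronic counts rose more than the exon counts. Averaged over the siRNAs, intronic counts of ACTB rose by 1.35 on the log2 scale (SE 0.17) and exon counts by 0.47 (SE 0.11). For ACTG1 the values were 1.53 (SE 0.16) and 0.51 (SE 0.09). Intronic counts of TUBB2A rose by 1.25 (SE 0.20) and of TUBB6 by 0.70 (SE 0.14), and these 4 were the members called, with 29.3% of all 19731 genes tested on intronic counts called. The intronic counts of TUBA1A, TUBA1C, TUBB and TUBB3 did not pass the test, TUBA1B had none, and TUBB4B had 0 to 5 per library.

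By library, intronic ACTB stood at 4.11 and 2.90 CPM of the intronic total in starved siControl and at 6.74 and 10.3 CPM after serum. With siPFDN2 the values went from 4.06 and 6.26 CPM to 9.17 and 8.72 CPM, and in siPFDN5 from 2.45 and 2.73 CPM to 11.3 and 9.34 CPM. The groups did not overlap within any siRNA, siPFDN2 included. The counts behind these values were small, from 34 to 242 per library. Within siControl the intronic change was 1.29 (SE 0.29) for ACTB, with an adjusted p of 0.00804 by edgeR's quasi-likelihood test, and 1.35 (SE 0.28) for ACTG1, with 0.00480. Both passed there, where neither gene's gene-body count did (8.63% of all genes called on intronic counts).

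Intronic ACTG1 stood at 16.0 and 10.8 CPM in starved siControl and at 27.5 and 40.7 CPM after serum. Under siPFDN2 the level went from 12.5 and 21.5 CPM to 40.1 and 32.9 CPM, and in siPFDN5 from 8.01 and 8.68 CPM to 37.6 and 36.1 CPM. These groups did not overlap either. ACTG1 overlaps the antisense gene AC139149.1, whose own intronic counts were 99 to 835 per library against 111 to 957 for ACTG1, and counting ignored the strand. Reads of the 2 genes cannot be told apart there. Another annotated gene, ENSG00000229947, also overlaps ACTG1, and its counts were not examined. The genes that overlap ACTB had few gene-body counts, 2 to 14 per library in AC006483.2 and 0 to 4 in AC006483.1, while the intronic counts of TUBB6 can hold reads from exons of AFG3L2.

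The difference itself was tested, as an interaction between serum and the kind of count with the library as a block. Averaged over the siRNAs, the intronic change exceeded the exon change by 0.90 (SE 0.15, adjusted p 0.000777) in ACTB and by 1.04 (SE 0.15, adjusted p 0.000221) in ACTG1. It exceeded it by 0.54 (SE 0.13) in TUBB6. These were 3 of 8 members tested, with 10.2% of 17390 genes called in that direction and 21.7% in either. For ACTB and ACTG1 the averaged excess passed the test in each fit with 1 library left out, and also with library size as the only scaling, where it was 0.65 and 0.79. TUBB6 did not pass with that scaling, at 0.29. In siPFDN5 ACTB and ACTG1 passed (21.3% of genes called), in siPFDN2 ACTG1 passed (4.78%), and in siControl none did (4.66%; ACTB and ACTG1 had an unadjusted p under 0.05), with excesses of 0.68 for ACTB and 0.73 for ACTG1. With library size as the only scaling ACTG1 in siPFDN2 stood at 0.39 in place of 0.98 and did not pass. Its siPFDN2 call was kept without starved siPFDN2 replicate 1 or without either siControl library after serum, and was lost in every other fit with 1 library left out. The siPFDN5 calls fell to 0 without starved replicate 1 or without replicate 1 after serum of that siRNA. How many of all genes passed in these alternative fits was not counted. Exon and intronic counts were each scaled to their own total, so each excess is relative to those totals. In siPFDN5 the intronic share of counts fell, from 22.8% and 25.9% starved to 17.2% and 14.8% after serum. Whether that fall adds to the siPFDN5 excess was not tested. The ACTG1 values can also hold reads of the overlapping gene AC139149.1.

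**Figure D4:**
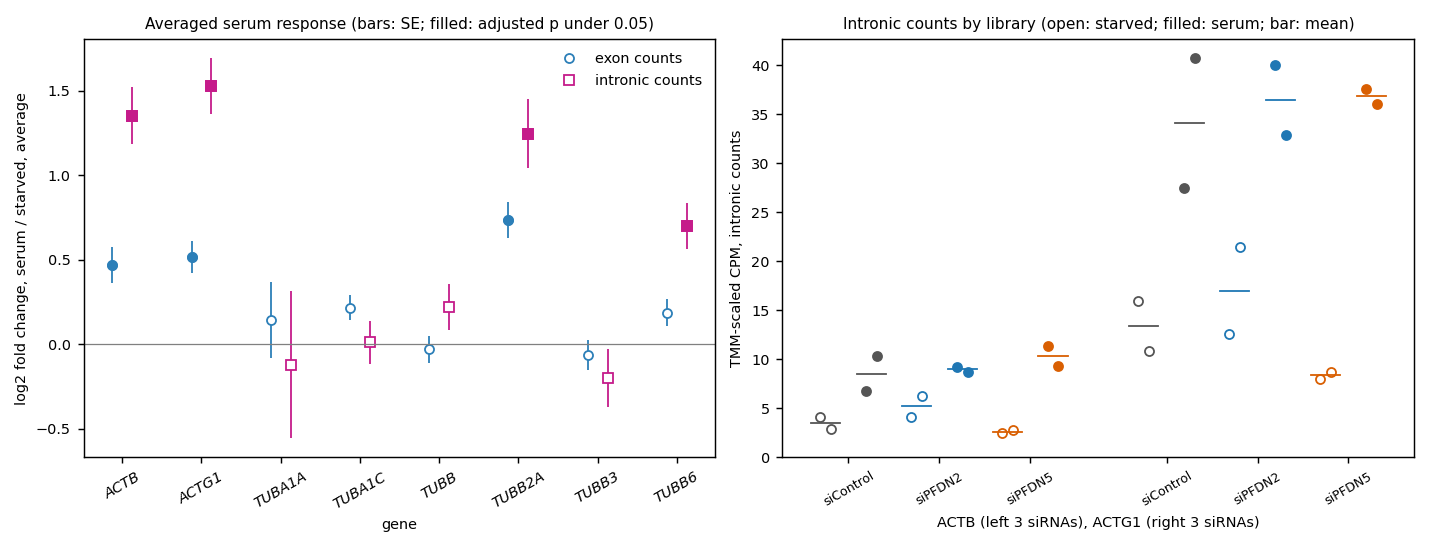
Left, averaged log2 fold change from starved to serum (y axis) of exon counts and intronic counts for the 8 members with intronic counts tested (x axis), with SE as bars and filled symbols for an adjusted p under 0.05. Right, TMM-scaled CPM of intronic counts (y axis, from 0) of ACTB and ACTG1 by siRNA, open for starved libraries, filled for serum, bars for means of 2. Intronic changes of ACTB and ACTG1 lie at 1.35 and 1.53, above exon changes of 0.47 and 0.51.

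The knockdowns were then compared with siControl, which asks whether lowering a prefoldin subunit changed the RNA of its client proteins. In none of the 4 comparisons did a member pass the test with all 12 libraries. For siPFDN2 in starved cells 0% of all genes were called, and 3 members had an unadjusted p under 0.05 (11.3% of all genes). DESeq2 called none (0.0454% of all genes by that tool). The largest member values were 0.47 (SE 0.14) for TUBB and 0.40 (SE 0.16) for ACTG1. Without the doubted starved replicate 2 ACTG1 came to 0.12, and TUBB to 0.30, and neither passed. Without starved replicate 1 of siPFDN2, which leaves the doubted library alone in its group, 6 members were called higher (ACTB, ACTG1, TUBB, TUBB2A, TUBB3 and TUBB4B), with 41.8% of all genes called. After serum the siPFDN2 values lay between -0.19 and 0.24, with 0% of all genes called. No member had an unadjusted p under 0.05 (6.26% of all genes) and none was called by DESeq2 (0.00206% of all genes). For ACTB the 95% interval of that difference was -0.48 to 0.34 and for ACTG1 it was -0.34 to 0.37.

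For siPFDN5 in starved cells, where PFDN5 was lower, 0.00716% of all genes were called. The actins stood at 0.02 (95% interval -0.39 to 0.43) for ACTB and 0.04 (-0.31 to 0.40) for ACTG1. The tubulins lay between -1.09 for TUBA1A and 0.18 for TUBB2A. Only 1 member, TUBA1A, had an unadjusted p under 0.05 (12.3% of all genes). DESeq2 called none (0.652% of all genes by that tool). From transcript estimates TUBA1A came to -0.20 (SE 0.13), against -1.09 from gene-body counts. TUBB3 stood at -0.31 with all libraries and passed, at -0.32, when either starved siPFDN2 library was left out (6.96% of all genes called without replicate 2).

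For the libraries labelled siPFDN5 after serum all 10 values were above siControl, from 0.16 to 1.07, with a median of 0.36 against -0.04 over all genes. None passed the test and 0.00358% of all genes did, but 5 members had an unadjusted p under 0.05 (21.6% of all genes). DESeq2 called 4, TUBA1A, TUBA1B, TUBA1C and TUBB2A (3.79% of 48486 genes with any count by that tool). TUBB2A was 0.82 higher (SE 0.18, adjusted p 0.0732) and TUBA1C 0.55 higher (SE 0.14, adjusted p 0.0800). With the GC trend removed 4 members were called higher, TUBA1B, TUBA1C, TUBB2A and TUBB4B, with 13.5% of all genes called. Without replicate 2 of starved siPFDN2 7 members were called higher, with 23.9% of all genes called. TUBB2A, TUBA1C and TUBA1B were among the members called in each of these 3 alternatives. ACTB was called in none of them, at 0.23 with all libraries.

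The 2 knockdowns were also compared with each other. In starved cells all 10 members were lower in siPFDN5 than in siPFDN2, by 0.12 to 0.70 on the log2 scale. Their median was -0.38, against 0.04 over all genes. None passed the test (0.0788% of all genes did). At an unadjusted p under 0.05 there were 5 members, against 29% of all genes. DESeq2 called 2, TUBB and TUBB4B (7.81% of 48486 genes with any count by that tool). After serum 9 of 10 were higher in the libraries labelled siPFDN5, with a median of 0.31 against 0.01 over all genes. None passed (0.0179% of all genes), and 3 had an unadjusted p under 0.05 (7.92% of all genes). DESeq2 called none (0.214% of all genes by that tool). Without replicate 2 of starved siPFDN2 ACTB and TUBB2A were no longer lower in starved siPFDN5, at 0.07 and 0.15, and without replicate 1 of that group 8 members were called lower (47.9% of all genes called). After serum TUBB2A was 0.73 higher (SE 0.18). Without replicate 2 of starved siPFDN2 it passed after serum, together with TUBB3, with 4.22% of all genes called.

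**Figure D5:**
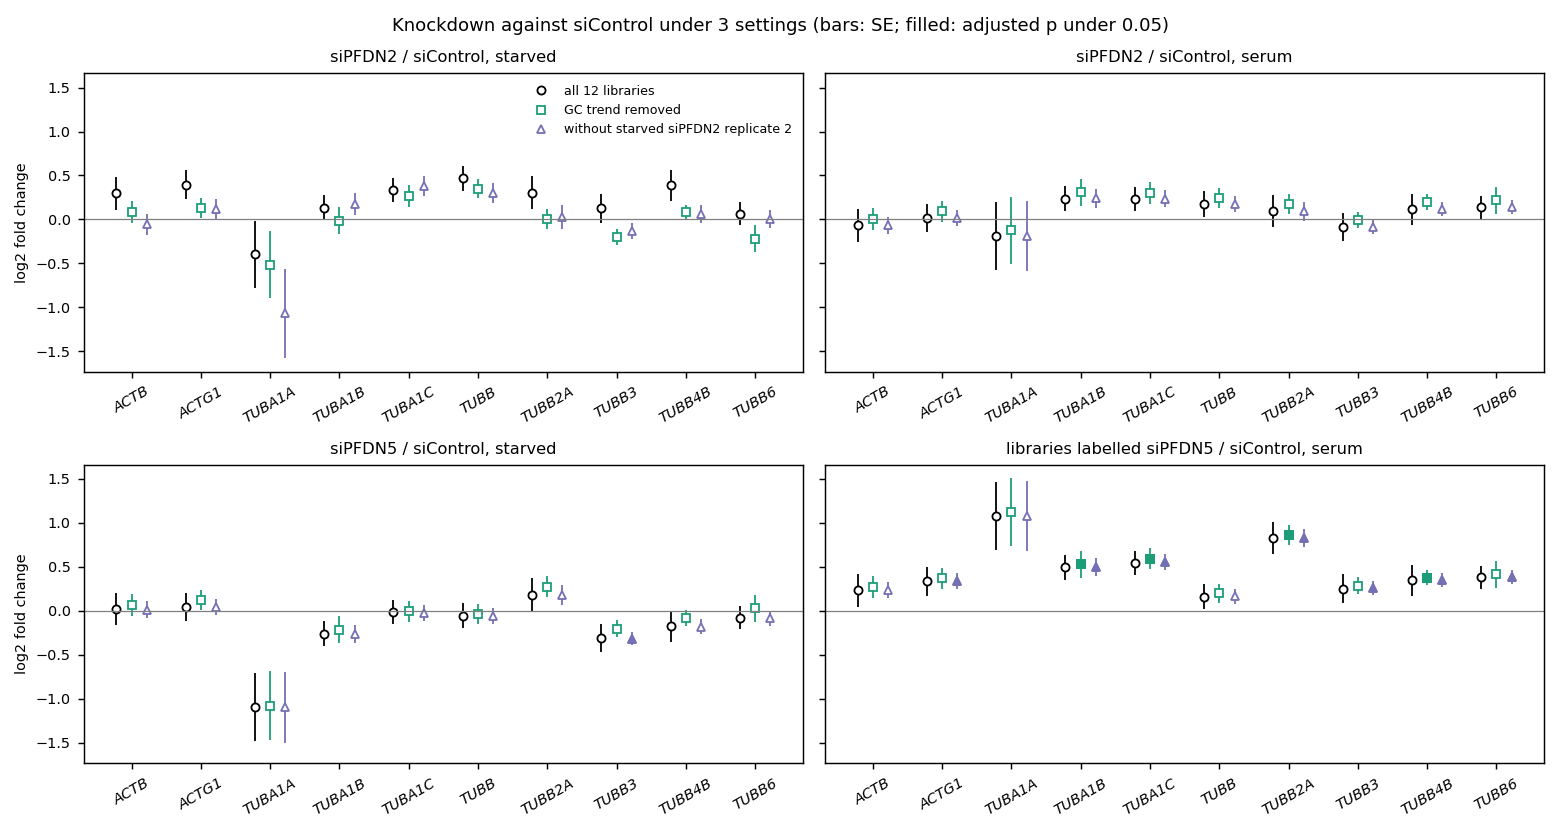
Log2 fold change against siControl (y axis) of each gene (x axis) for siPFDN2 and siPFDN5, starved and after serum, with all 12 libraries, with the GC trend of each library removed, and without replicate 2 of starved siPFDN2. Bars are SE and filled symbols had an adjusted p under 0.05. Filled symbols lie almost all in the panel of libraries labelled siPFDN5 after serum, and the exception is TUBB3 in starved siPFDN5.

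Whether the serum response differed between a knockdown and siControl was tested as an interaction. No member passed for siPFDN2, with 0% of all genes called. None had an unadjusted p under 0.05 (6.6% of all genes) or was called by DESeq2 (0.00412% of all genes). Values ran from -0.38 for ACTG1 to 0.21 for TUBA1A. Without starved siPFDN2 replicate 1, 5 members were called with a lower response, ACTB, ACTG1, TUBB, TUBB3 and TUBB4B (37.7% of all genes called). No member passed for siPFDN5 either, again with 0% of all genes called. Its serum libraries are those labelled siPFDN5, where PFDN5 overlapped siControl in gene-body counts and was lower without overlap in exon counts. In this comparison all 10 values were positive, with a median of 0.54 against -0.03 over all genes. Of these, 6 had an unadjusted p under 0.05 (20.9% of all genes). DESeq2 called 2, TUBA1A and TUBA1B (3.5% of 48486 genes with any count by that tool). The difference was 2.17 (SE 0.55, adjusted p 0.0960) for TUBA1A and 0.75 (SE 0.20, adjusted p 0.0995) for TUBA1B. Without replicate 2 of starved siPFDN2 7 tubulins passed (21.8% of all genes called) and the actins did not, at 0.21 (SE 0.26) for ACTB and 0.29 (SE 0.23) for ACTG1 with all libraries.

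Related genes were described by lists, in the averaged serum response, where 7.6% of all genes were called higher and 7.31% lower with a median of -0.03. Nothing particular to a list is read from its count. Of 13 tested among other actins and actin-related proteins, 2 rose and none fell, with a median log2 fold change of 0.17. These were ACTG2, gamma smooth muscle actin (3.59, SE 0.26), and ACTBL2 (3.72, SE 0.49). Both were scarce, with ACTG2 at 0.0266 to 0.0843 CPM in starved and 0.444 to 0.599 CPM in serum libraries, and ACTBL2 not above 0.407 CPM. ACTR3, a subunit of the Arp2/3 complex that nucleates branched actin, stood at 0.47 (SE 0.15) and ACTR5 at -0.28 (SE 0.09), and neither passed the test.

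Of 13 genes tested among actin monomer and filament regulators and SRF pathway factors, 4 rose and none fell, with a median of 0.20 (all genes 7.6% higher, 7.31% lower, median -0.03). SRF rose by 1.99 (SE 0.12), from 25.2 to 54.1 CPM in starved libraries to 119 to 140.0 CPM after serum, without overlap. DSTN, which severs and depolymerises actin filaments, rose by 0.71 (SE 0.13). TMSB4X, which binds actin monomers, rose by 0.42 (SE 0.09), and CAP1, which recharges them, by 0.33 (SE 0.10).

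Of 13 other tubulins tested, 2 rose and 5 fell, with a median of -0.44 (all genes 7.6% and 7.31%, median -0.03). TUBB2B rose by 1.08 (SE 0.19) and TUBA4A, an alpha tubulin, by 0.38 (SE 0.10). TUBD1, delta tubulin, fell by 0.52 (SE 0.09), and TUBG2, a gamma tubulin of microtubule nucleation, fell by 0.55 (SE 0.12). The other members that fell, named after their values were seen, were TUBA3D, TUBA8 and TUBB8, which fell by 0.72, 0.47 and 0.89. They were scarce, with 453, 1790 and 160 gene-body counts over the 12 libraries together. Of 9 tested tubulin folding cofactors and tubulin RNA decay factors none passed, with a median of 0.02. An unadjusted p under 0.05 was found for TBCA and TBCB, and for 32.7% of all genes. TBCA, which holds beta tubulin during dimer assembly, stood at 0.32 (SE 0.12), TBCB at 0.20 (SE 0.08), TBCD at -0.28 (SE 0.13) and SCAPER at -0.21 (SE 0.14).

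Of 19 microtubule regulators and tubulin modifying enzymes, 3 rose and 1 fell, with a median of -0.12 (all genes 7.6% and 7.31%, median -0.03). MAPRE2 rose by 0.83 (SE 0.10) and MAPRE1 by 0.43 (SE 0.09), both proteins of growing microtubule ends. STMN1, which sequesters tubulin dimers, rose by 0.37 (SE 0.11), and TTLL4, a tubulin glutamylase, fell by 0.32 (SE 0.09). Of 67 annotated pseudogenes of the members 23 were tested, and 2 rose and 1 fell, with a median of 0.21 against the same shares and median of all genes. Reads of the parent genes can be counted there. These were ACTG1P2 at 0.55, TUBB2BP1 at 0.77 and TUBBP5 at -0.63. No gene of these 6 lists passed in a comparison of siRNAs or in the difference of serum responses with all 12 libraries.

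Across the 12 libraries ACTB and ACTG1 levels on the log2 CPM scale had a Pearson r of 0.981, as a description without a test. The libraries share the serum treatment and the GC trend of 1 library. Among 12103 genes ranked, those most like ACTB were CNN2, an actin-binding calponin, with r of 0.986, then RAD9A (0.975), MED29 (0.973), HOOK2 (0.971) and C11orf68 (0.970). Most like TUBA1B was AC011603.2, which overlaps it and so shares its reads, followed by TRAPPC3 (0.964), NHP2, CDC42SE1 (both 0.959) and STK16 (0.958). TUBA1B and TUBA1C had an r of 0.899, and TUBB and TUBB2A one of 0.295, so the members did not form 1 pattern.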

How the data were processed

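RNA of 12 HCT116 libraries was sequenced from total RNA depleted of 18S ribosomal RNA. The deposited count tables hold whole-number counts per gene over gene bodies and over exons, and the authors used featureCounts 1.5.2 on GRCh38.p7, per the submitters' processing notes. The deposited transcript files hold estimated counts, with kallisto 0.43 named in the same notes. 6 columns of each count table matched no sample and were not used. The members and lists were chosen with earlier results of these data known. Genes were named by rule as the 10 members, PFDN2 and PFDN5, up to 4 genes of each list with the smallest p in the averaged serum response, and the 5 genes most correlated with ACTB and with TUBA1B.

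Counts were tested with edgeR 4.0.16 (quasi-likelihood, robust, TMM scaling, prior count 2) in R 4.3.3, on all 6 groups and the 27915 genes that passed filterByExpr, with Benjamini-Hochberg adjustment and a threshold of 0.05. Intronic counts are gene-body minus exon counts. Estimated counts were summed per gene and rounded. GC trends were removed by a lowess offset (span 0.3). Alternatives included DESeq2 1.42.0, other scalings and filters, a replicate block and leaving out each library. Shares of all genes by DESeq2 and with no filter are of the 48486 genes with any count. Genes without an adjusted p from DESeq2 count there as not called. For the same number of calls these shares run lower than those of the main fit and cannot be set beside them. Scripts were tested on simulated data.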

Additional observations from a re-analysis of the deposited data

Results flagged for a closer look

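TUBB and TUBB3 had values of opposite sign for serum in siPFDN2 and siPFDN5, and starved and serum libraries did not overlap in either siRNA. How many of all genes show the same was not counted, so nothing particular to these genes is read from it. The log2 fold change of TUBB was -0.26 in siPFDN2 and 0.25 in siPFDN5, and that of TUBB3 was -0.37 and 0.41. None of these 4 values passed the test. The difference between these 2 siRNAs was not tested. Without replicate 2 of starved siPFDN2 the siPFDN2 values were -0.09 for TUBB and -0.11 for TUBB3.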

How the results depend on the processing

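With all libraries 7 members were called in the siPFDN5 serum response, 4 in the averaged response and none in the other 10 comparisons. Across 1526 member values under alternatives that keep all libraries 115 had the other sign, and 0 of these had passed the test under either setting. Leaving out 1 library gave 0 to 3 members called for serum in siControl, 0 to 3 in siPFDN2, 0 to 10 in siPFDN5 and 3 to 7 on average. It gave 0 to 6 for siPFDN2 against siControl in starved cells, 0 to 1 for siPFDN5 in starved cells and 0 to 7 after serum. Between the knockdowns it gave 0 to 8 starved and 0 to 2 after serum, and for the difference in serum response 0 to 5 (siPFDN2) and 0 to 7 (siPFDN5). For the intron-minus-exon change it gave 0 to 2 in siPFDN2, 0 to 3 in siPFDN5 and 3 to 4 on average. How many of all genes passed in those intron-minus-exon fits was not counted. For gene-body counts the share of all genes called with 1 library left out ran from 0.93% to 9.95% for serum in siControl. It ran from 0.818% to 48.6% in siPFDN2, 0.857% to 36.3% in siPFDN5 and 6.85% to 47.3% on average. Its highest values, from 0 in each, were 41.8% for siPFDN2 starved, 6.96% and 23.9% for siPFDN5 starved and after serum, 47.9% and 4.22% between the knockdowns, and 37.7% (siPFDN2) and 21.8% (siPFDN5) for the differences. A lone library left in a group is assumed to vary like the other groups.

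For serum in siControl 3 members were called with no filter, with the GC trend removed, with that and the replicate block, and with exon counts after GC removal or without starved siPFDN2 replicate 2. There were 2 with intronic counts and 1 with only the groups compared or with DESeq2. All genes called in these fits were 3.36% with no filter, 6.34% and 5.4% with GC removal without and with the block, 6.69% and 12% with the exon alternatives, 8.63% with intronic counts, 4.03% with only the groups compared and 2.43% with DESeq2. In siPFDN2 there were 4 with the GC trend removed (exon counts too), 2 with the block added, 1 with intronic counts and 3 with exon counts without that library, against 6.72% (9.08%), 5.62%, 11.8% and 5.46% of all genes. In siPFDN5 exon, intronic and transcript counts each gave 4, against 4.22%, 27.8% and 4.35%. On average the GC removals (with the block and with exon counts too) and exon counts without that library each gave 7, against 26% to 28.4%.

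Against siControl, siPFDN5 in starved cells had 1 member with no filter, 2 with only the groups compared and 1 with exon counts without that library (2.13%, 19.5% and 10.8% of all genes). After serum there were 3 with no filter, 4 with GC removal (exon counts too), 3 with the block added, 2 with only the groups compared, 6 with exon counts without that library and 4 with DESeq2 (5.42%, 13.5% and 13.3%, 9.46%, 7.81%, 26.5% and 3.79%). Between the knockdowns in starved cells there were 4 with no filter, 3 with intronic counts, 1 with exon counts after GC removal, 2 with exon counts without that library and 2 with DESeq2 (11.5%, 16%, 6.83%, 5.8% and 7.81%). After serum there were 1 with no filter, 1 with GC removal (exon counts too), 8 with only the groups compared and 3 with exon counts without that library (0.536%, 0.552% and 1.5%, 22.7% and 7.78%). For the siPFDN5 difference in serum response there were 2 with no filter, 4 with GC removal, 6 with only the groups compared, 6 with exon counts without that library and 2 with DESeq2 (4.98%, 8.69%, 14.9%, 18.7% and 3.5%). For the intron-minus-exon change in siPFDN2, library size as the only scaling gave 2 members, TUBA1C (-0.90) and TUBB3 (-0.91), both lower, in place of 1, ACTG1, whose excess went from 0.98 to 0.39. On average that scaling also called TUBA1C lower (-0.44). How many of all genes passed under that scaling was not counted. The cause of these changes was not tested. The exon-count alternatives with GC removal or without that library were chosen after seeing the data.

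Same-numbered libraries deviated together in 4 of 15 pairs of groups (correlation over 0.1, range -0.32 to 0.59). Whether equal numbers mark libraries prepared together cannot be told from these values. The main test did not pair them. With the replicate block alone 4 members were called on average (13.3% of all genes) and 7 in siPFDN5 (10.2%). In the other comparisons 0 were called, against at most 2.74% of all genes. Library-size scaling moved the median of all genes in the averaged response from -0.03 to -0.17 on the log2 scale. Intronic counts of 13 to 75 (TUBB2A) and 34 to 242 (ACTB) per library limit the precision.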

Other observations

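In the deposited transcript estimates the main ACTB transcript, ACTB-201, held 74.8% to 96.1% of the ACTB estimate per library.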
